A study of Homo sapiens with 6 samples.

Results

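The genes described here are 28 of the 61279 genes summed from the libraries. They encode the enzymes that build cholesterol from acetyl-CoA, the proteins that control those enzymes through the SREBP transcription factors, and a few proteins that take up, carry or store cholesterol. They were listed by name from knowledge of the pathway, with earlier results of these data known, and no measured value enters the rule. Of the 28, 27 passed the filter on low counts, which kept 16442 genes in all, and the exception, IDI2, had no reads in any library. The labelled source of all 6 libraries was T47D, a line of breast cancer cells that carry hormone receptors, grown in RPMI with serum. According to the labels, 3 libraries came from cells given DMSO, the solvent control, and 3 from cells given MI-503 at 4 μmol/L. Each treatment lasted 24 hours, and the labelled genotype was wild type throughout. The study, however, describes T47D as a line with a mutated PIK3CA gene. MI-503 is a compound that keeps menin from binding MLL1, a histone H3 lysine 4 methyltransferase encoded by KMT2A. As labelled, the comparison asks how transcript levels differed after MLL1 inhibition, which these libraries cannot answer for a reason given below.

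Cells make cholesterol in the cytosol and the endoplasmic reticulum. Acetyl-CoA is joined into HMG-CoA and converted to mevalonate, mevalonate is turned into isoprenyl diphosphates, these are joined into squalene, squalene is closed into the ring of lanosterol, and lanosterol is trimmed to cholesterol. The isoprenyl diphosphates also feed protein prenylation and the synthesis of dolichol and ubiquinone. When sterols are scarce, SCAP carries SREBP2, the product of SREBF2, from the endoplasmic reticulum to the Golgi, where proteases release its transcription factor part. When sterols are plentiful, INSIG proteins hold SCAP back. SREBP binds the sterol regulatory element in the promoters of most of these enzymes, next to sites of NF-Y, which binds CCAAT, and of Sp1, which binds GC boxes.

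The libraries of the DMSO label went against that label, and this bears on every difference below. Of 14 luminal breast markers, 14 were higher with the MI-503 label by edgeR's quasi-likelihood test, and their summed level was 287.7 to 428.6 CPM (counts scaled to library size and TMM factors) with the DMSO label against 10820 to 13880 CPM with the MI-503 label. KRT19, an epithelial keratin, was at 25.5 ± 2.85 CPM in the former and 3100.0 ± 795 CPM in the latter (SD, n = 3 each), PRLR at 1.51 ± 0.601 and 2628 ± 352 CPM, and GATA3 at 0.194 ± 0.335 and 1428 ± 15.4 CPM. GATA3 had no reads in 2 of the 3 libraries labelled DMSO, and neither did the estrogen receptor gene ESR1, a gene chosen after its values were seen. Of 12 prostate markers, 12 were lower with the MI-503 label, with a summed level of 6630 to 7777 CPM with the DMSO label against 115.5 to 126 CPM. The gene of prostate-specific antigen, KLK3, had no reads with the MI-503 label, and its level with the DMSO label was 3708 ± 47.9 CPM (SD, n = 3). STEAP2, a membrane protein gene of the prostate, went from 620 ± 242 to 83.6 ± 7.0 CPM (SD, n = 3 each). The DMSO libraries thus lack defining markers of the labelled breast line. An effect of MI-503 and a difference between these 2 groups of libraries cannot be told apart, and the words higher and lower refer to the labels alone.

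Each library held between 17404736 and 22168525 estimated reads, and mitochondrial genes took 1.381% to 7.176% of them. Across all genes tested, log2 levels correlated at 0.974 to 0.992 (Pearson's r) between libraries of the same label and at 0.758 to 0.778 between labels, a description over genes, which are not independent replicates. The study's figure legend calls the 3 libraries of a label independent experiments. The levels of KMT2A itself overlapped between the labels, at 60.4 to 126 CPM for DMSO and 81.6 to 143 CPM for MI-503. MEN1, which encodes menin, was 2.42-fold higher with the MI-503 label (edgeR, adjusted p = 0.000265). In bulk RNA, fewer cells of a type and less RNA per cell cannot be told apart.

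The promoters of these genes show what the members share in sequence. In RefSeq (GRCh38.p14), 24 of the 28 genes had a promoter window of 300 bases, from 250 before to 50 after the transcript start, with up to 3 windows per gene. ACAT2, FDFT1, SQLE and SCARB1 had none. The stretches printed here lie before the RefSeq start and outside annotated UTRs, although the near ends of those of MVD and EBP reach into other GENCODE transcripts that start further upstream. They read 5′ to 3′ on the strand of the gene. Capitals mark CCAAT or its reverse complement ATTGG and, in SREBF2, the sterol regulatory element. SREBF2, the regulator, is shown from chr22:41832955-41833104 (plus strand), 150 bases that end at the last base before the start. MSMO1, EBP and MVD are shown as enzymes that were higher with the MI-503 label, from chr4:165327517-165327666 (plus strand), chrX:48521656-48521805 (plus strand) and chr16:88663149-88663298 (minus strand). INSIG1 and its paralogue INSIG2, which was lower, are set side by side, from chr7:155297628-155297775 and chr2:118088302-118088451 (both plus strand). LBR is the enzyme that was lower, shown from chr1:225428926-225429071 (minus strand).
SREBF2: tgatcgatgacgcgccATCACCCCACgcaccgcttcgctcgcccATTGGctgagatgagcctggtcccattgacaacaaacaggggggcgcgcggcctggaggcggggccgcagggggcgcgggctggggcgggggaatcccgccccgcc
MSMO1: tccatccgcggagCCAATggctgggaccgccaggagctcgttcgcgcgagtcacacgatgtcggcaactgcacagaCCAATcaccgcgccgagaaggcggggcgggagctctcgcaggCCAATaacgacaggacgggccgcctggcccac
EBP: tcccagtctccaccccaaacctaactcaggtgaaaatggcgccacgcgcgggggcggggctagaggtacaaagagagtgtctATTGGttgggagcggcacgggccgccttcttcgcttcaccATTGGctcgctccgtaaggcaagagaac
MVD: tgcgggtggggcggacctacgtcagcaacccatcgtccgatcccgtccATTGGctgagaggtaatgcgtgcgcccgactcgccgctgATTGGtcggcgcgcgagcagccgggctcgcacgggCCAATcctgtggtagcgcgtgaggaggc
INSIG1: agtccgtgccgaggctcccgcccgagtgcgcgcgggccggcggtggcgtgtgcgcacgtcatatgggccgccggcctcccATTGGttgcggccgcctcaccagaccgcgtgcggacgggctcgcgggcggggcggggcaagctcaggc
INSIG2: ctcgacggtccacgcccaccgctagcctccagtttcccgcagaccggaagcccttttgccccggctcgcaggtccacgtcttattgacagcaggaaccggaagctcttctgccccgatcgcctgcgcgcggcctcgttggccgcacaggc
LBR: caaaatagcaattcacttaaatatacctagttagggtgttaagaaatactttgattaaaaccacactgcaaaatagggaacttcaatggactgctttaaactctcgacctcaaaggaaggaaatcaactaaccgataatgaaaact

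MSMO1 and MVD each hold 3 CCAAT matches in the stretch shown and EBP holds 2, whereas LBR and INSIG2 hold none. Over the whole windows and both strands, a CCAAT match was present in 15 of the 16 matched members that were higher with the MI-503 label (93.8%), with CYP51A1 as the exception. Among the 4 that were lower, SOAT1 alone held a match (25.0%), and among the 3 tested members that were not past the test, INSIG1 and SREBF2 did. Of all genes with a window, 39.7% held CCAAT (10846 of 27305), of the genes tested 42.9%, of those higher with the MI-503 label 44% and of those lower 41.4%. The median number of CCAAT matches was 1 in the members and 0 in all genes with a window. MVK and NSDHL held the most of the members, 5 each, and MSMO1 held 4, while other genes held up to 8. The GC box GGGCGG was present in 21 of 24 members (87.5%), against 48.3% of all genes with a window and 75.7% of those tested. The sterol regulatory element, searched as TCACNCCAC on both strands, was found in SREBF2 alone among the 24 members (4.17%), against 1.39% of all genes with a window. The longer form capitalised in the SREBF2 sequence contains that shorter form and occurred in 16 of 27305 genes (0.0586%). A match describes letters in a window and is not a measured binding site, and the shares carry no test. A missing match to the letters searched does not show that a gene lacks the element.

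Taking the members as a whole, 20 of the 27 tested were higher with the MI-503 label, 4 were lower and 3 were not past the test at an adjusted p under 0.05 (edgeR's quasi-likelihood test, Benjamini-Hochberg over 16442 genes). That is 88.9% called, beside 62.9% of all genes tested, of which 31.7% were higher and 31.2% lower. The median log2 fold change of the 27 was 1.47, against −0.00 over all genes tested. A log2 fold change beyond 2, the threshold of the study's methods, was reached by 7 members, all higher, namely HMGCS1, MVK, MVD, IDI1, SQLE, TM7SF2 and MSMO1, where 12.6% of all genes were higher and 11.7% lower by that rule. The libraries of the labels did not overlap for the 20 higher and the 4 lower members, as was the case for 68.7% of all genes, 34.7% in the higher and 34.0% in the lower direction. The direction differed by role. Of the 20 synthesis enzymes tested, 18 were higher, LBR was lower and PMVK did not pass, with a median log2 fold change of 1.64. Of the 4 genes of SREBP control, none was higher, INSIG2 and SCAP were lower, and INSIG1 and SREBF2 did not pass. The count of none depends on INSIG1, which had an unadjusted p of 0.0406 and was called higher in 7 of 16 alternatives, DESeq2 and limma-voom among them.

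**Figure D1:**
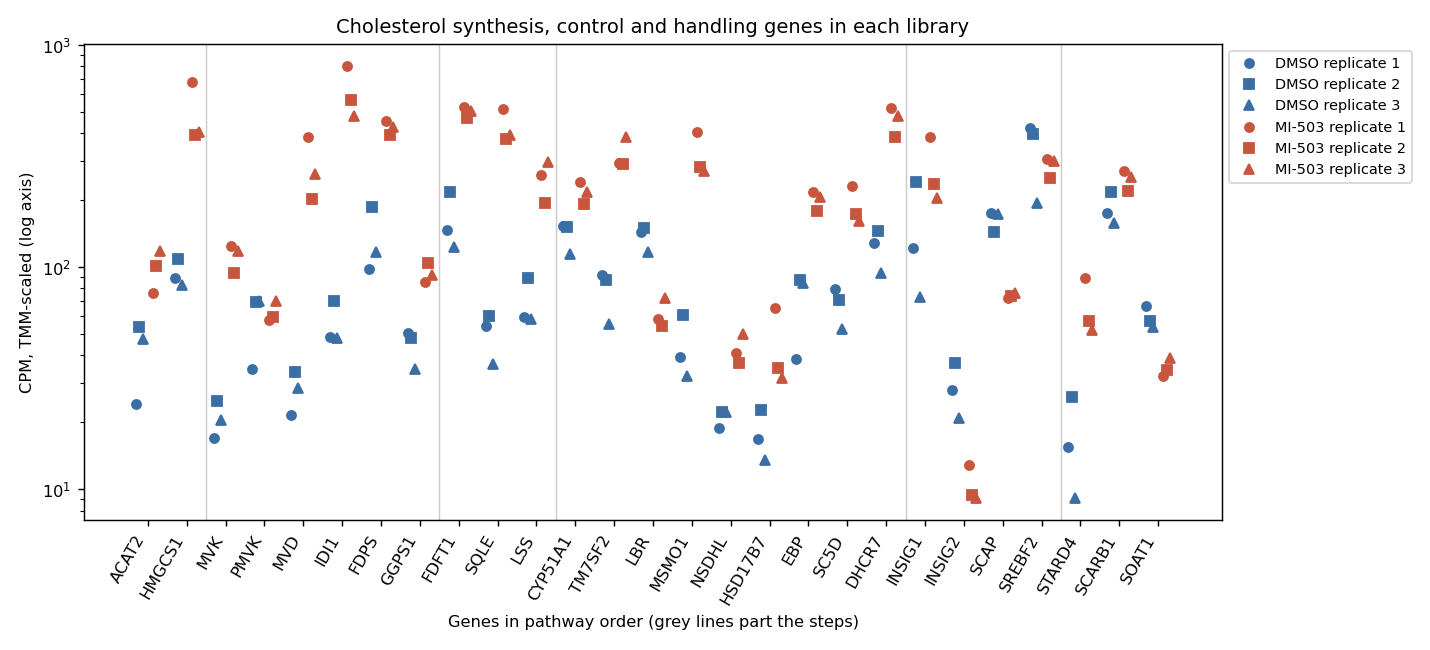
Level of each tested gene in each library, in TMM-scaled CPM on a log axis, with genes in pathway order, blue for the DMSO label and red for the MI-503 label, and circle, square and triangle for replicates 1, 2 and 3. From ACAT2 to DHCR7 the red points lie above the blue ones except at PMVK, where they overlap, and LBR, where they lie below.

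The entry to the pathway was higher at both of its measured steps. ACAT2 encodes the cytosolic thiolase that joins acetyl-CoA units. Its level was 24.2, 53.9 and 47.5 CPM in DMSO replicates 1, 2 and 3 and 76.6, 101 and 117 CPM in the MI-503 replicates. All MI-503 libraries lay above all DMSO libraries, with DMSO replicate 1 well below the others of its label, and the log2 fold change was 1.23 ± 0.28 (SE; edgeR, adjusted p = 0.00362). HMGCS1, the cytosolic HMG-CoA synthase, was at 89.3, 109 and 83.1 CPM with the DMSO label and at 677, 392 and 404 CPM with the MI-503 label. The difference was 5.24-fold (log2 2.39 ± 0.24 SE; edgeR, adjusted p = 1.83e-05), and MI-503 replicate 1 stood above its partners. ACAT2 overlaps TCP1, SOD2 and SOD2-OT1 on the opposite strand. TCP1 had more reads than ACAT2 in every library, TCP1 and SOD2 had fewer with the MI-503 label, and SOD2-OT1 had 22, 22 and 17 reads against 10, 27 and 54. The strandedness of the libraries is not given in the sources used here, so reads from bases that such partners share cannot be told apart. Overlap here means that the gene coordinates overlap, and how many transcript bases are shared was not measured.

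From mevalonate to the isoprenyl diphosphates, 5 of 6 tested enzymes were higher. The phosphorylating steps differed from each other. MVK, the first kinase, was at 16.9, 24.9 and 20.4 CPM with the DMSO label and at 124, 93.5 and 117.6 CPM with the MI-503 label, 5.39-fold higher (edgeR, adjusted p = 4.48e-06). PMVK, the next kinase, was at 34.7, 69.8 and 70.3 CPM against 57.6, 59.6 and 70.2 CPM. Its libraries overlapped, the log2 difference was 0.10 ± 0.25 (SE), and the test was not passed (edgeR, adjusted p = 0.749). MVK overlaps MMAB on the opposite strand, which had 1555, 1915 and 1081 reads with the DMSO label and 1981, 1757 and 1935 with the MI-503 label. The sign of PMVK turned under upper-quartile scaling (−0.00), library size alone (−0.02) and without DMSO replicate 1 (−0.17).

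MVD and IDI1 had the largest fold changes among the members. MVD (chr16:88651935-88663161 in GENCODE 44 on GRCh38, minus strand), the decarboxylase that yields isopentenyl diphosphate, was at 21.6, 33.7 and 28.5 CPM with the DMSO label. It was at 386.5, 201.9 and 260.8 CPM with the MI-503 label, 10.1-fold higher (log2 3.34 ± 0.27 SE; edgeR, adjusted p = 4.57e-06). IDI1 (chr10:1039152-1049119, minus strand), the isomerase that makes dimethylallyl diphosphate, was at 48.1, 70.3 and 47.7 CPM and at 806, 563 and 478 CPM. This was 11.1-fold (log2 3.48 ± 0.25 SE; edgeR, adjusted p = 2.2e-06), and every MI-503 library was several times above the highest DMSO library. IDI2, the paralogue of IDI1, had 0 reads in all 6 libraries, where a count of 0 allows up to 3 reads (0.136 to 0.178 CPM per library, counting error only), and it was not tested. IDI2-AS1, a long noncoding RNA on the opposite strand of IDI1 and IDI2, had 22, 31 and 27 reads with the DMSO label and 1412, 322 and 143 with the MI-503 label. Those reads came to at most 8.54% of the IDI1 reads in any library.

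FDPS, which makes farnesyl diphosphate, was at 98.2, 187 and 116.5 CPM with the DMSO label and at 455, 392 and 427 CPM with the MI-503 label. The labels did not overlap, with a 3.17-fold difference (edgeR, adjusted p = 0.000167). RUSC1-AS1, which overlaps FDPS on the opposite strand, went from 59, 78 and 172 reads to 1531, 402 and 250, at most 16.4% of the FDPS reads. GGPS1, which makes the geranylgeranyl diphosphate used to prenylate small GTPases, was at 50.3, 48.0 and 34.6 CPM and at 85.4, 104 and 92.1 CPM. It was 2.12-fold higher (edgeR, adjusted p = 0.000534). GGPS1 overlaps ARID4B on the opposite strand, which had 823, 669 and 724 reads with the DMSO label and 1719, 1366 and 1186 with the MI-503 label, up to 98.1% of the GGPS1 reads. It also overlaps a same-strand locus whose reads came to at most 33.1% of its own and were fewer with the MI-503 label. The part of these overlaps in the GGPS1 values was not tested.

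The squalene and ring closure steps were higher at all 3 enzymes. FDFT1, squalene synthase, commits isoprenyl units to sterols and was at 146, 218 and 123.5 CPM with the DMSO label. With the MI-503 label it was at 527, 468 and 502.5 CPM, 3.07-fold higher (edgeR, adjusted p = 0.000118). SQLE, squalene epoxidase, an oxygen-requiring and rate-limiting step, was at 54.2, 59.9 and 36.4 CPM and at 515, 378 and 392.5 CPM. Its 8.54-fold difference (log2 3.09 ± 0.23 SE; edgeR, adjusted p = 2.31e-06) was the third largest of the members. LSS, lanosterol synthase, was at 59.5, 89.2 and 58.6 CPM and at 258, 194 and 296.7 CPM, 3.61-fold higher (edgeR, adjusted p = 6.32e-05). In each of the 3 genes the lowest MI-503 library was above the highest DMSO library.

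Of the 9 enzymes from lanosterol to cholesterol, 8 were higher and 1 was lower. CYP51A1, the lanosterol demethylase, showed the smallest difference of the higher enzymes. It was at 152.5, 151 and 115 CPM with the DMSO label and at 241, 192 and 216.5 CPM with the MI-503 label, 1.55-fold (edgeR, adjusted p = 0.00781). It shares its locus with AKAP9 on the opposite strand, whose reads were fewer with the MI-503 label.

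The next step, reduction of the C14 double bond, can be carried out by 2 enzymes, and these went in opposite directions. TM7SF2 (chr11:65111845-65116384, plus strand), the sterol reductase of the endoplasmic reticulum, was at 91.8, 87.2 and 55.5 CPM with the DMSO label and at 293.9, 291.5 and 386 CPM with the MI-503 label. It was 4.14-fold higher (log2 2.05 ± 0.22 SE; edgeR, adjusted p = 2.95e-05). LBR (chr1:225401502-225428925, minus strand), a reductase that is also the lamin B receptor of the inner nuclear membrane, was at 144, 149 and 117 CPM and at 58.3, 54.4 and 72.8 CPM. It was 2.21-fold lower with the MI-503 label (log2 −1.15 ± 0.17 SE; edgeR, adjusted p = 0.000257), without overlap. In TPM, which is per transcript length and allows levels of the 2 genes to be set side by side, TM7SF2 made up 58.0%, 55.1% and 46.99% of their sum in the DMSO libraries. In the MI-503 libraries it made up 89.0%, 89.1% and 91.4%. TM7SF2 overlaps VPS51 on the same strand, whose reads exceeded its own with the DMSO label and overlapped between the labels.

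The C4 demethylation complex followed the same direction at different sizes. MSMO1 (chr4:165327667-165343164, plus strand), the methyl oxidase, was at 39.5, 60.5 and 32.4 CPM with the DMSO label and at 406, 283 and 271 CPM with the MI-503 label, 7.25-fold higher (edgeR, adjusted p = 1.07e-05). NSDHL, the decarboxylating dehydrogenase, was at 18.8, 22.1 and 22.3 CPM and at 40.9, 36.9 and 49.7 CPM, 2.02-fold higher (edgeR, adjusted p = 0.000721). HSD17B7, the ketoreductase, was at 16.8, 22.8 and 13.6 CPM and at 65.0, 35.0 and 31.7 CPM, 2.48-fold higher (edgeR, adjusted p = 0.0035). In HSD17B7 the MI-503 label was spread by replicate 1, without which the log2 fold change was 0.91 in place of 1.31. HSD17B7 has a near-identical copy, HSD17B7P2, with 23, 27 and 30 reads against 313, 107 and 66, at most 23.5% of its own, so its split is uncertain.

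The closing steps were all higher. EBP, the sterol isomerase, was at 38.6, 87.3 and 84.7 CPM with the DMSO label and at 217, 179 and 207 CPM with the MI-503 label, 2.86-fold (edgeR, adjusted p = 0.00092). SC5D, the desaturase that turns lathosterol into 7-dehydrocholesterol, was at 79.2, 71.2 and 52.8 CPM and at 231, 173 and 160.4 CPM, 2.78-fold (edgeR, adjusted p = 0.000156). DHCR7, which reduces 7-dehydrocholesterol to cholesterol, was at 128, 145 and 93.5 CPM and at 517, 384 and 476 CPM, 3.76-fold (edgeR, adjusted p = 2.63e-05). The libraries of the labels did not overlap in any of these genes.

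**Figure D2:**
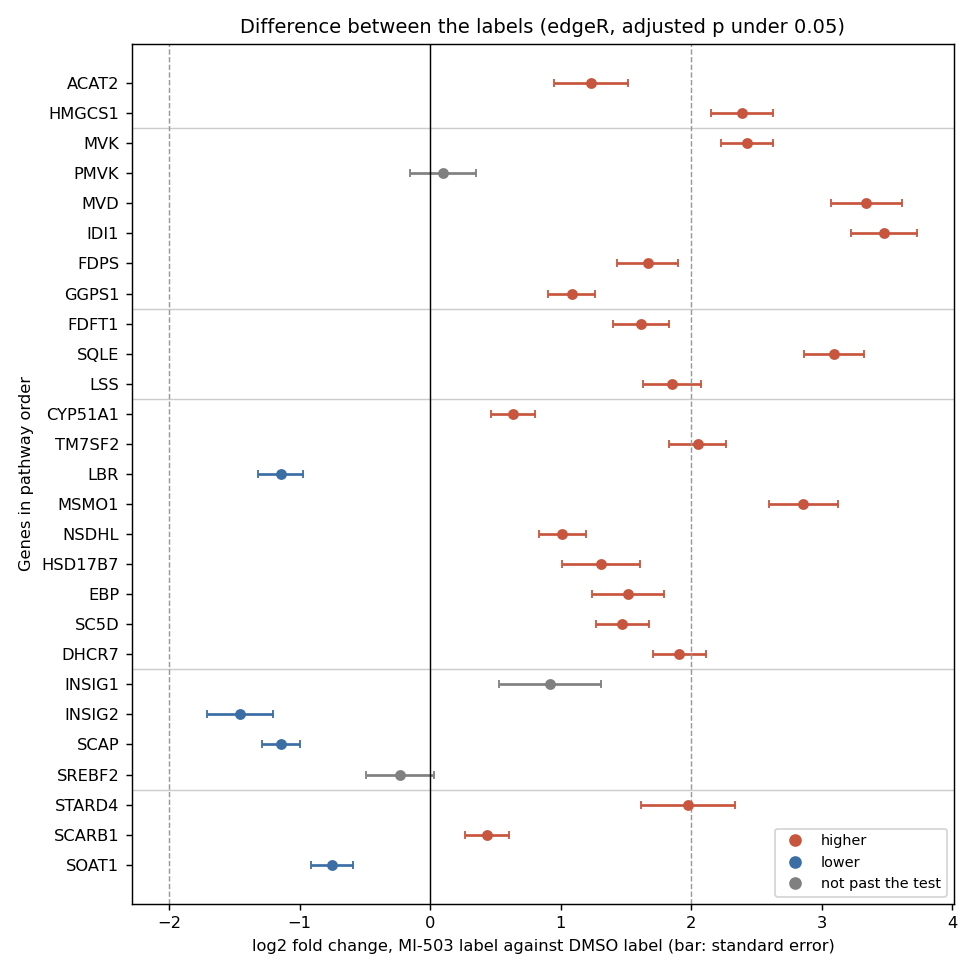
Log2 fold change of the MI-503 label against the DMSO label for each tested gene in pathway order, with bars for the standard error and dashed lines at a log2 fold change of 2 in either direction. Red points are higher, blue lower and grey not past the test, and the 4 genes of SREBP control hold no red point.

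Of the genes of SREBP control, SCAP and INSIG2 were lower and SREBF2 and INSIG1 were not past the test. SREBF2, which encodes SREBP2, was at 421, 396 and 194 CPM with the DMSO label and at 307, 252 and 301 CPM with the MI-503 label. Its libraries overlapped and the log2 difference was −0.23 ± 0.26 (SE; edgeR, adjusted p = 0.462). DMSO replicate 3 was the lowest of the 6, and without it SREBF2 was lower with the MI-503 label (log2 −0.51; edgeR, adjusted p = 0.0185). SCAP, the escort of SREBP, was at 174.5, 144 and 173 CPM and at 72.6, 73.8 and 76.3 CPM. It was 2.21-fold lower (log2 −1.14 ± 0.15 SE; edgeR, adjusted p = 8.96e-05), with the MI-503 libraries close to each other.

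INSIG1 and INSIG2 hold SCAP in the endoplasmic reticulum. INSIG1, itself a target of SREBP, was at 121, 240.1 and 73.4 CPM with the DMSO label and at 383, 235 and 204 CPM with the MI-503 label. The labels overlapped through DMSO replicate 2, and the log2 difference of 0.92 ± 0.39 (SE) did not pass the test (edgeR, adjusted p = 0.0625). It passed in 7 of 16 alternative analyses, among them the one without DMSO replicate 2 (log2 1.49; adjusted p = 0.00455) and the one without MI-503 replicate 3 (log2 1.11; adjusted p = 0.0479), and its adjusted p ranged from 0.000129 to 0.227. INSIG2, which depends less on SREBP, was at 27.9, 37.0 and 21.0 CPM and at 12.8, 9.36 and 9.15 CPM. It was 2.74-fold lower without overlap (log2 −1.45 ± 0.25 SE; edgeR, adjusted p = 0.000654). Of the summed INSIG TPM, INSIG1 made up 76.4 ± 7.48% with the DMSO label and 94.8 ± 0.594% with the MI-503 label (SD, n = 3 each).

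Among the genes of uptake, transport and storage, STARD4 had the largest difference. STARD4, a soluble carrier that moves cholesterol between membranes and is an SREBP target, was at 15.4, 26.0 and 9.07 CPM with the DMSO label and at 89.4, 56.9 and 51.9 CPM with the MI-503 label. It was 3.93-fold higher (edgeR, adjusted p = 0.000868), while the opposite-strand RNA STARD4-AS1 had 133, 93 and 158 reads against 57, 24 and 18. SCARB1, the receptor for high density lipoprotein, was at 174, 218 and 158 CPM and at 271, 219 and 253.5 CPM. Its labels were separated by less than 1 CPM and its log2 difference of 0.43 ± 0.17 (SE; edgeR, adjusted p = 0.0458) was lost in 11 of 16 alternatives. These included leaving out DMSO replicate 1 or 3 or any of the MI-503 replicates (log2 0.34 to 0.51), and the adjusted p over all alternatives ranged from 0.0239 to 0.135.

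SOAT1, which esterifies cholesterol for storage and is also known as ACAT1, was at 66.7, 57.2 and 53.8 CPM with the DMSO label and at 32.3, 34.4 and 38.8 CPM with the MI-503 label. It was 1.68-fold lower (log2 −0.75 ± 0.16 SE; edgeR, adjusted p = 0.00239). With an offset for the average transcript length in each library, the value was −0.44 and the call was lost (adjusted p = 0.0623).

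**Figure D3:**
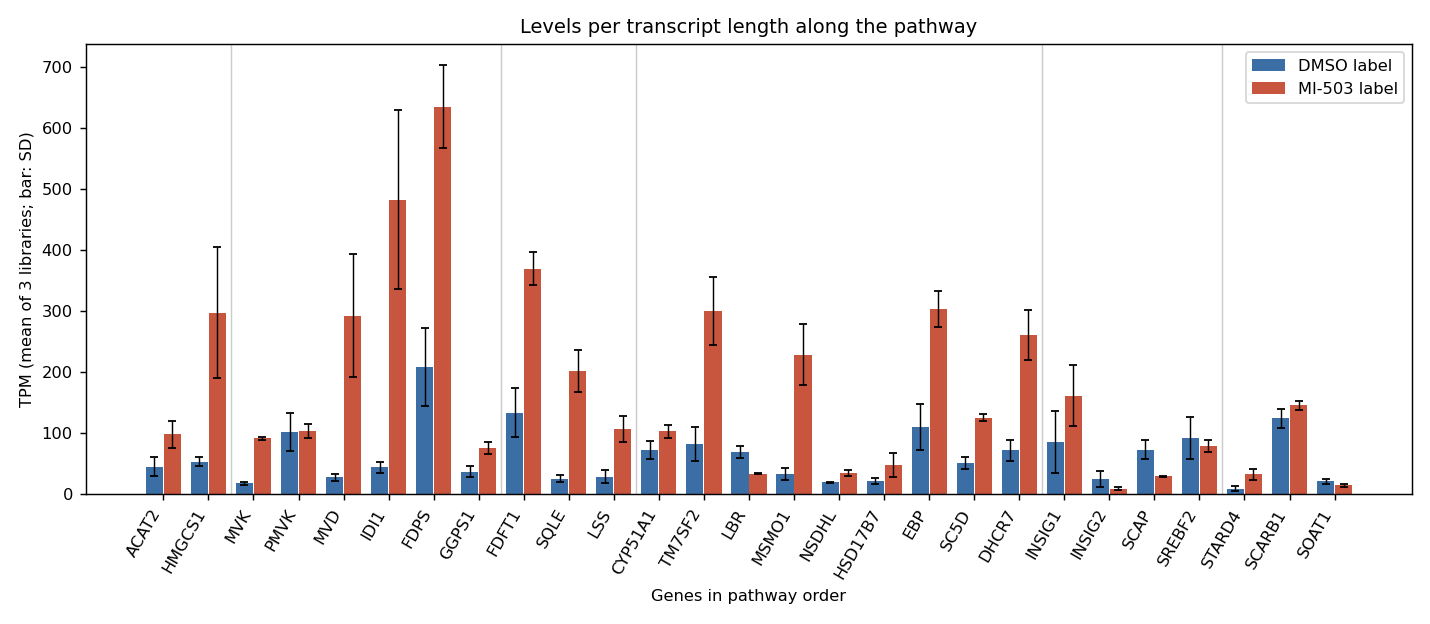
Mean TPM (a level per transcript length) of each tested gene along the pathway for the DMSO label (blue) and the MI-503 label (red), with bars for the SD of 3 libraries. FDPS is the highest gene with both labels, at 208 and 635 TPM, and IDI1 moves from 43.9 to 482 TPM.

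Set side by side per length, the members were not equally abundant, and their order differed between labels. With the DMSO label the highest were FDPS (208 ± 63.6 TPM), FDFT1 (133.5 ± 40.2 TPM), SCARB1 (124 ± 15.8 TPM) and EBP (110.0 ± 38.2 TPM; SD, n = 3 each), of which the last 3 overlapped with each other. With the MI-503 label they were FDPS (635 ± 67.3 TPM), IDI1 (482 ± 147 TPM), FDFT1 (369 ± 26.8 TPM), EBP (303 ± 30.1 TPM), TM7SF2 (299.8 ± 55.1 TPM) and HMGCS1 (297 ± 107 TPM), of which the last 3 differed by less than their spread. IDI1 was 16th of the 28 genes with the DMSO label and 2nd with the MI-503 label, MVD 20th and 7th, and SQLE 21st and 10th. PMVK went the other way, from 5th to 15th, with 102 ± 30.9 and 103 ± 11.6 TPM. The summed level of the synthesis enzymes was 1158, 1506 and 1086 TPM in the DMSO libraries and 4799, 3659 and 4098 TPM in the MI-503 libraries, with no overlap. The 4 genes of SREBP control summed to 274 ± 72.9 TPM and 278 ± 62.4 TPM (SD, n = 3 each), a sum of genes that differed in opposite directions. Mean TPM was 85.2 with the DMSO label and 161 with the MI-503 label for INSIG1. It was 72.5 and 29.5 for SCAP, 24.8 and 8.84 for INSIG2, and 91.3 and 79.0 for SREBF2.

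Libraries of the same label also differed in this pathway. In DMSO replicate 2, all 20 synthesis enzymes tested were above the mean of their label, by a median ratio of 1.20, where the median over genes of at least 5 CPM was 0.995. The median ratio was 0.897 in DMSO replicate 1 and 0.852 in DMSO replicate 3. Among the 27 members, DMSO replicate 2 was the highest of its label in 18 (66.7%), against 26.5% of all genes tested, and DMSO replicate 3 was the lowest in 19 (70.4%), against 41.5%. DMSO replicate 2 had the smallest mitochondrial share of the 6 libraries (1.381%) and DMSO replicate 3 the largest (7.176%), and the part of this in the ratios was not tested. Among the MI-503 libraries, replicate 1 was highest in 18 of 27 members (66.7%), against 39.9% of all genes, with a median ratio of 1.09 over the enzymes. The ratios were 0.885 in MI-503 replicate 2 and 1.01 in replicate 3. Without MI-503 replicate 1, 19 members were higher and 4 lower, and 7 were past a log2 fold change of 2.

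**Figure D4:**
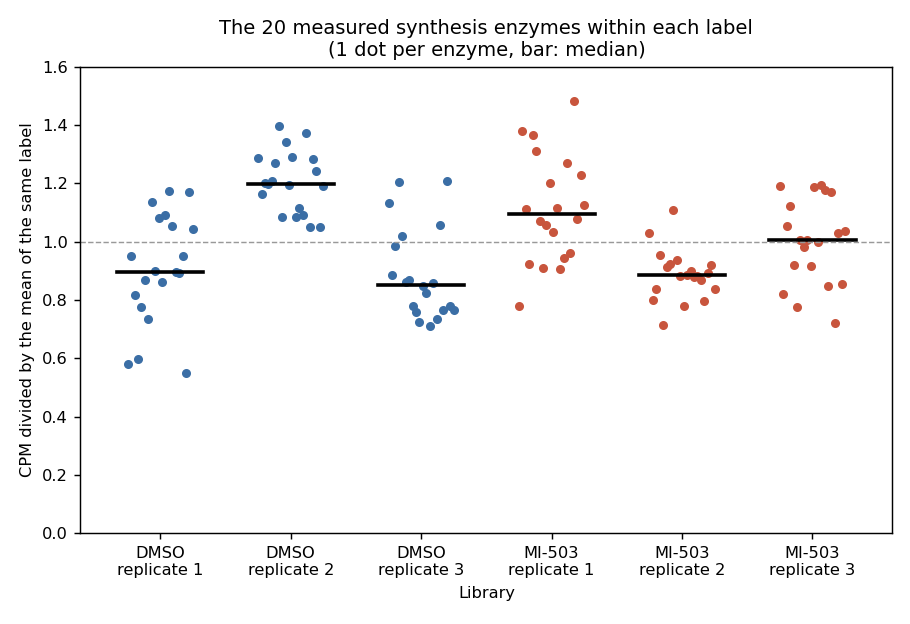
Level of each of the 20 tested synthesis enzymes in each library, as CPM divided by the mean CPM of the same label, with 1 dot per enzyme and a bar at the median. All dots of DMSO replicate 2 lie above 1, with a median of 1.20, and most dots of MI-503 replicate 2 lie below 1.

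The transcripts behind the gene totals were called different for some members, at a share close to that of all genes tested. In edgeR's test of transcript usage, which compares the makeup of each gene rather than its level, 6 of 25 members tested had changed (24% of them), beside 19.0% of all genes tested (1965 of 10364). The 6 were FDPS (adjusted p = 1.64e-05), TM7SF2 (0.00114), DHCR7 (0.00207), FDFT1 (0.00958), SREBF2 (0.011) and HMGCS1 (0.0111). PMVK, SQLE and IDI2 had fewer than 2 transcripts in this test. In FDPS, the retained-intron transcript FDPS-215 took 0%, 2.42% and 5.38% of the gene's TPM in the DMSO libraries and 24.1%, 11.8% and 14.3% in the MI-503 libraries. This transcript passed the test on its own (edgeR, adjusted p = 0.0219). The coding transcript FDPS-203 took 18.8 ± 5.83% and 11.4 ± 2.4% (SD, n = 3 each) and did not pass it. All shares of transcripts given here are of TPM, while the test used reads.

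In FDFT1, the coding transcript FDFT1-201 took 68.1%, 75.3% and 74.7% with the DMSO label and 82.5%, 90.9% and 89.8% with the MI-503 label, without overlap. FDFT1-202 fell from 9.24 ± 1.16% to 1.68 ± 0.55% (SD, n = 3 each; edgeR, adjusted p = 0.0408 for the transcript). In HMGCS1, the coding HMGCS1-202 took 72.9 ± 1.39% and 62.5 ± 4.11%, and the retained-intron HMGCS1-203 rose from 1.41 ± 0.97% to 9.24 ± 6.98% (edgeR, adjusted p = 0.0108). HMGCS1-203 took 17.1%, 6.99% and 3.65% in MI-503 replicates 1, 2 and 3. In SREBF2, the coding SREBF2-201 took 93.3 ± 3.66% and 80.9 ± 8.33%, and the retained-intron SREBF2-205 took 2.58 ± 2.14% and 8.94 ± 3.65%. In DHCR7, DHCR7-201 took 87.8 ± 2.62% and 82.0 ± 2.72%, and DHCR7-205 took 2.92 ± 1.16% and 7.15 ± 1.29%. In TM7SF2, the main transcript TM7SF2-201 took 62.5 ± 3.84% and 66.4 ± 3.98%, and the retained-intron TM7SF2-222 took 10.4 ± 8.93% and 4.34 ± 1.67%, with DMSO replicate 1 far above the rest.

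The transcripts of SREBF2, DHCR7 and TM7SF2 just given, with the largest differences in share, did not pass the test on their own, and neither did FDFT1-201 and HMGCS1-202. Further transcripts that passed it are given next and were chosen after their values were seen. TM7SF2-210 was at 0% in the DMSO libraries and at 1.67%, 4.65% and 1.59% in the MI-503 libraries (edgeR, adjusted p = 0.0088). SREBF2-202, a nonsense-mediated decay transcript, took 0.09 ± 0.15% and 3.43 ± 0.73% (SD, n = 3 each; edgeR, adjusted p = 0.0105), and DHCR7-210 took 0% and 1.03 ± 0.42% (edgeR, adjusted p = 0.0157). FDPS-211 was at 6.47 ± 1.12% with the DMSO label and at 0% with the MI-503 label (edgeR, adjusted p = 0.000185). FDPS-219 took 2.53 ± 2.52% and 0% (SD, n = 3 each; edgeR, adjusted p = 0.00211). The count of 6 depended on the setting. When transcripts under 10% of their gene's reads were left out, edgeR called none of the 12 members that could still be tested (4 at an unadjusted p under 0.05), and of the 6 FDPS alone could be tested (adjusted p = 0.847). Without DMSO replicate 1 the count was 3 (FDPS, TM7SF2 and DHCR7).

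Retained-intron transcripts took 7.57%, 6.03% and 9.86% of the members' summed TPM in the DMSO libraries and 17.7%, 9.02% and 9.48% in the MI-503 libraries. MI-503 replicate 1 thus stood apart from the other 5. Over all genes the shares were 6.78%, 6.49% and 7.68% and 8.74%, 7.22% and 6.79%, with MI-503 replicate 1 again the highest. The opposite-strand RNAs of IDI1 and FDPS were most abundant in the same library. The part of this library in the usage results was not tested beyond leaving it out, which gave 4 changed members. These were FDPS, FDFT1, TM7SF2 and DHCR7, while HMGCS1 (edgeR, adjusted p = 0.0682) and SREBF2 (adjusted p = 0.0764) lost the call.

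Other genes of sterol and isoprenoid metabolism give the setting of the members. The isoprenoid side branch holds enzymes of protein prenylation, of the later processing of prenylated proteins, and of dolichol and quinone synthesis. Of its 15 genes, 2 were higher, 8 lower and 5 not past the test, with a median log2 fold change of −0.58. SRD5A3, the polyprenol reductase of dolichol synthesis, was at 57.7, 59.4 and 54.1 CPM with the DMSO label and at 16.1, 21.2 and 19.7 CPM with the MI-503 label, a log2 difference of −1.59 ± 0.17 (SE; edgeR, adjusted p = 2.75e-05). DHDDS, a subunit of the enzyme that builds the dolichol chain, was 2.41-fold higher (edgeR, adjusted p = 0.000128), and RCE1, a protease that trims prenylated proteins, was 1.75-fold higher (edgeR, adjusted p = 0.0124).

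Of 16 genes of SREBP processing and sterol sensing, 7 were higher, 3 lower and 6 did not pass, with a median log2 fold change of 0.26. MBTPS1, the site-1 protease that makes the first cut in SREBP, was at 99.4, 88.2 and 87.3 CPM with the DMSO label and at 454, 404 and 428 CPM with the MI-503 label, 4.68-fold higher (log2 2.23 ± 0.15 SE; edgeR, adjusted p = 1.1e-06). ERLIN1, a membrane protein of the endoplasmic reticulum that takes part in sterol-regulated degradation, was 3.56-fold higher (edgeR, adjusted p = 1.27e-05). AUP1, a lipid droplet protein of the same degradation route, was 1.66-fold lower (edgeR, adjusted p = 0.00363), and NFYC, a subunit of the CCAAT-binding NF-Y, was 1.48-fold lower (edgeR, adjusted p = 0.0166).

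Of 21 tested genes of sterol transport and efflux, 9 were higher, 5 lower and 7 did not pass, with a median log2 fold change of 0.47. OSBPL9, an oxysterol-binding protein relative, was 2.32-fold higher (edgeR, adjusted p = 0.000148) and STARD5, a sterol carrier, 3.20-fold higher (edgeR, adjusted p = 0.000335). OSBPL5, another relative, was 2.85-fold lower (edgeR, adjusted p = 1.49e-05) and PITPNA, a phosphatidylinositol transfer protein, 2.76-fold lower (edgeR, adjusted p = 6.62e-05). For scale, of 15 widely used reference genes, 8 were higher, 3 lower and 4 did not pass, with a median log2 fold change of 0.50 and a range of −1.69 to 2.13. The synthesis enzymes had 90% of their tested genes higher, against 13.3% in the isoprenoid side branch, 43.8% in SREBP processing, 42.9% in transport and efflux, and 53.3% of the reference genes. These are counts beside a background of 31.7% of all genes tested, with no test between the lists. Lower genes made up 53.3% of the isoprenoid side branch, 18.8% of SREBP processing and 23.8% of transport and efflux, beside 31.2% of all genes. In either direction, 66.7%, 62.5% and 66.7% of these 3 lists were called, close to the 62.9% of all genes.

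**Figure D5:**
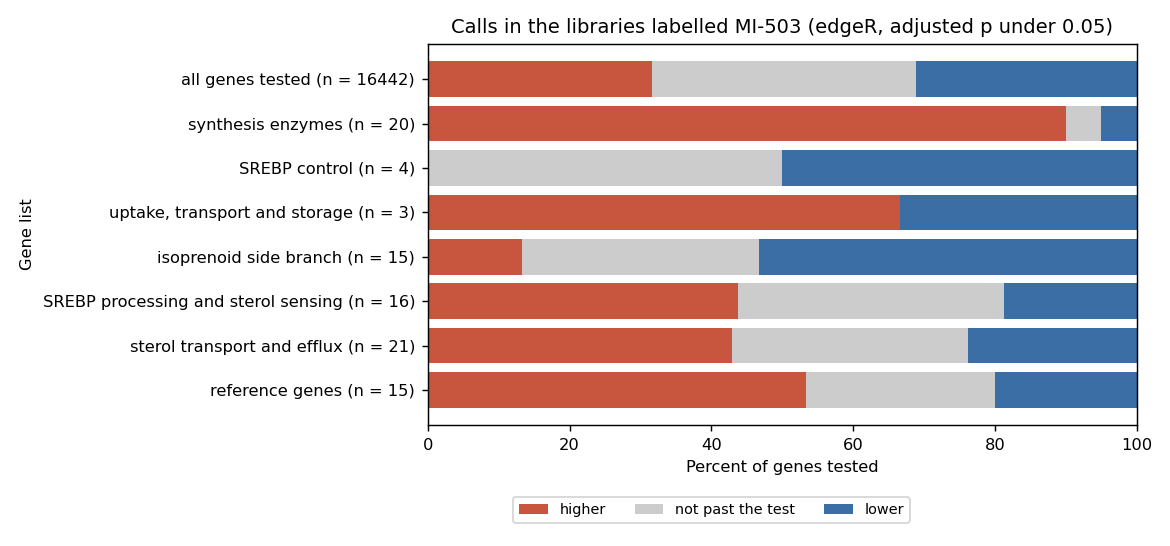
Percent of tested genes that were higher (red), not past the test (grey) or lower (blue) with the MI-503 label, for all genes tested and for each list, with the number of genes tested in the list's name. The synthesis enzymes show 90% higher, beside 31.7% of all genes tested, and the isoprenoid side branch shows 53.3% lower, beside 31.2%.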

How the data were processed

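The authors quantified transcripts with salmon (Illumina DRAGEN) and deposited, per library, estimated counts of reads and TPM for 232117 transcripts, without further normalization. TPM, as deposited by the authors, is scaled by effective transcript length within each library. Builds hg38 and GRCh38.p13 come from the submitters' processing notes, while salmon's version, its annotation release and the strandedness were not given in the sources used here. Transcript identifiers were matched to GENCODE release 44 (229321, 98.8%, and at least 99.155% of reads), summed to 61279 genes and rounded. Libraries were grouped by label. The main test was edgeR 4.0.16 (glmQLFit and glmQLFTest, filterByExpr, TMM factors of 0.934 to 1.053) in R 4.3.3, with Benjamini-Hochberg adjustment over 16442 genes. DESeq2 1.42.0, which the study used, and limma 3.58.1 (voom) were alternatives, beside other scalings and filters, a transcript length offset, and each library left out. Transcript usage was tested with diffSpliceDGE. With 3 libraries per label, p-values measure only the spread between these libraries, and a floor of 3 reads covers counting error only. No libraries of the same label were duplicates, since their counts differed by 16.8 to 117 times the sampling noise (chi-square over its degrees of freedom). Promoter windows came from RefSeq.

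The members and lists were chosen with earlier results of these data known. All members were named. Of each other pathway list, up to 2 genes per direction with the smallest adjusted p were named, of the marker lists up to 3 with the highest mean CPM, and of a member with changed usage the 2 transcripts with the largest difference in share. Some genes that this rule takes are not reported here.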

Additional observations from a re-analysis of the deposited data

How the results depend on the processing

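Across 16 alternative analyses, 19 to 21 members were higher, 3 to 5 lower and 6 to 10 past a log2 fold change of 2, and 9140 to 12049 genes were called over the whole table. Leaving out single libraries gave 19 to 21 higher and 4 to 5 lower members and 9140 to 10305 genes called. Over 27 genes and 16 alternatives, 409 of 432 values kept their direction and their side of the threshold, 12 lost a call, 8 gained one and 3 turned sign, and 22 of the 27 genes did not change under any of these alternatives. The sign turned in PMVK, which was −0.0029 under upper-quartile scaling, −0.0218 with library size alone and −0.166 to 0.257 when single libraries were left out, with the negative value without DMSO replicate 1. With library size alone, the median of all genes moved by −0.119 on the log2 scale. Of genes called, 50.4% were higher, and 45.4% to 52.3% under the alternatives.

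The number of members with changed transcript usage was 6, but 0 when transcripts under 10% of their gene's reads were left out (edgeR, 4 of 12 members at an unadjusted p under 0.05), where fewer genes were tested (7643). It was 1, SCARB1, which is not among the 6, with the same limit on TPM, an alternative chosen after seeing the data. It was from 3 to 7 when single libraries were left out, for which the cause was not tested. No pairing by replicate number was visible, as deviations of same-numbered libraries correlated at −0.098, 0.071 and −0.089. With 3 libraries per label, these values cannot show that the samples were unpaired. A fit with the replicate number as a block gave 20 higher and 4 lower members, 8 past a log2 fold change of 2, 9984 genes called and 2 members with changed usage, with INSIG1 gained and SCARB1 lost. At this depth, IDI2 was not detectable. Overlapping or copied genes may limit ACAT2, MVK, IDI1, FDPS, GGPS1, CYP51A1, TM7SF2, HSD17B7 and STARD4, to an extent that was not measured.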
